A study of Mus musculus with 217 samples.

Results

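The messenger RNAs of 10 genes that drive meiotic maturation and hold the mature oocyte in metaphase II were followed across single mouse oocytes and pools of granulosa cells, which line the follicle around the oocyte and feed it. The members were chosen by symbol, Mos, Ccnb1, Ccnb2, Cdk1, Cks2, Plk1, Aurka, Wee2, Cdc25b and Fbxo43, and all 10 were found among the 53619 genes counted. Smart-seq2, a method that copies polyadenylated RNA of few cells into full-length cDNA, had been run on 171 single metaphase II oocytes in 10 groups, on 18 granulosa pools in 6 groups of 3, and on 28 single oocytes of the C57BL6 strain. The first 2 kinds of sample came from C57BL6/129 mice, wild type or labelled knockout for Tet2, the gene of a dioxygenase that acts on methylated cytosines of DNA. Oocytes numbered 18 wild type and 15 knockout at 2 months (young). At 6 months (middle-aged) there were 20 wild-type control, 14 wild-type resveratrol, 20 knockout control and 20 knockout resveratrol oocytes. At 10 months (old) the same groups held 20, 14, 15 and 15 oocytes. Granulosa pools were young wild type, young knockout label, and the 4 old groups of genotype and treatment. The C57BL6 oocytes, which carry no genotype tag, were 11 middle-aged control, 6 old control and 10 old resveratrol, and 1 more could not be assigned. Per the labels, resveratrol was drunk at 30 mg per L from 2 months of age, control water held the solvent DMSO, and every young group carries the control tag. All mice received pregnant mare serum gonadotropin, and those giving metaphase II oocytes also hCG, so that every group is hormone-stimulated. The deletion behind the knockout label is not described in the labels, and no animal is named for any sample.

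Maturation promoting factor, the kinase that drives an oocyte from prophase into metaphase, is a complex of Cdk1 with a B-type cyclin and a small Cks subunit. Wee1-type kinases such as Wee2 hold Cdk1 inactive by phosphorylation, and Cdc25 phosphatases such as Cdc25b remove that phosphate. Mos starts the MAP kinase cascade of cytostatic factor, Fbxo43 (Emi2) blocks the anaphase-promoting complex until fertilisation, and Plk1 and Aurka act at spindle poles. In fully grown oocytes transcription is silent, and the stored messages are used or removed by changes of their poly(A) tails.

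Positions are those of the GENCODE annotation of GRCm38, also called mm10. Mos (chr4:3870657-3872105, minus strand) has 1 exon. Ccnb1 (chr13:100778650-100786570, minus strand) and Ccnb2 (chr9:70407692-70421547, minus strand) have 9 exons each. Cdk1 (chr10:69335146-69352938, minus strand) has 8 exons and Cks2 (chr13:51645232-51650660, plus strand) has 3. Plk1 (chr7:122159439-122169873, plus strand) has 10 exons and Aurka (chr2:172356190-172370535, minus strand) has 9. Wee2 (chr6:40439088-40466813, plus strand) has 12 exons, Cdc25b (chr2:131186949-131198497, plus strand) has 16 and Fbxo43 (chr15:36150060-36164884, minus strand) has 5. Exons of Cdc25b overlap those of Spef1 on the other strand and exons of Plk1 those of Gm44985, and near-identical copies exist for Ccnb1 (4 other loci) and Cks2 (3, up to 100% identical). How the counting treated strand and shared reads is not given in the sources used, and the values of these 4 genes carry that uncertainty.

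The stretch of 150 bases before the start site is shown for the cyclins and Cdk1, which granulosa cells and oocytes both held, and for Wee2, which was near 0 in granulosa cells. Sequences are RefSeq's for GRCm38.p6, on the strand of the gene and before RefSeq's start site, which for Wee2 lies well inside the span GENCODE gives. Capitals mark CCAAT (or ATTGG, the same motif on the other strand) and TTTGAA, the core of the cell cycle homology region, a promoter element of mitotic genes. Ccnb1 is from chr13:100786487-100786636, Ccnb2 from chr9:70421555-70421704, Cdk1 from chr10:69352913-69353062 and Wee2 from chr6:40442713-40442862.
Ccnb1: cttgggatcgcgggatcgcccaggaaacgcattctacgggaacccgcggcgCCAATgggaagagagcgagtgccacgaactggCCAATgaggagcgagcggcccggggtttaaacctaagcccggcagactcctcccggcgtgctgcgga
Ccnb2: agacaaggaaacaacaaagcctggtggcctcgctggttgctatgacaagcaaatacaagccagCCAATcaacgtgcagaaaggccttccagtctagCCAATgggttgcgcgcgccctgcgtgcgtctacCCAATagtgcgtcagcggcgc
Cdk1: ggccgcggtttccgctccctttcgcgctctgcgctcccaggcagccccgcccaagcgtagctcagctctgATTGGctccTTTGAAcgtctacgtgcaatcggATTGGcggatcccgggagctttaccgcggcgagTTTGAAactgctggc
Wee2: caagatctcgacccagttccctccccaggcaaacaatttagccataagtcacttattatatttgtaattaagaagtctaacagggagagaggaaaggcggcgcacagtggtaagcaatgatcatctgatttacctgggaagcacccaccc
Repeated CCAAT boxes stand in the shown stretches of Ccnb1, Ccnb2 and Cdk1, and none of these letters match in that of Wee2. In the longer windows of 300 bases, CCAAT or ATTGG was present in 8 of the 8 members with an entry, against 37.4% of 32851 gene windows, and TTTGAA on either strand in 4 of 8 against 17.9%. Mos and Fbxo43 had no entry. The motifs were picked after values were seen, and a match is a description only.

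Near the message's end, the cytoplasmic polyadenylation element (TTTTAT or TTTTAAT, read on the sense strand) recruits the protein that lengthens poly(A) tails in maturing oocytes. It was present in the last 100 bases of 3 of the 10 members' transcripts, against 17.9% of 19353 genes. Only these spellings and 1 annotated transcript per gene were searched. A member without a match can hold the element further upstream, in another spelling or at another end. Cks2, Wee2 and Aurka held it, and 30 bases around it are shown because the assay reads polyadenylated RNA. Wee2 held 2, TTTTAAT and TTTTAT, and the one nearest the end is shown. Capitals mark TTTTAT and, where present, the poly(A) signal AATAAA.
Cks2: tgTTTTATtttacctgttttgttaAATAAA
Wee2: tgtaAATAAAgaTTTTATcttatccaaaga
Aurka: ttTTTTATgttggagttctgtcatgtatgc

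Depth was 3386039 to 8775154 counts in oocytes, 3470831 to 11358927 in C57BL6 oocytes and 470647 to 20537935 in granulosa pools, with 5 of the 6 young pools under 1000000. Transcripts of 12 oocyte markers such as Gdf9 and Zp3 made up 2.47% to 5.14% of an oocyte's counts, while 7 of 10 granulosa markers and 4 of 4 cumulus markers had a median of 0 there. In granulosa pools the 10 granulosa markers made up 0.334% to 0.804% of counts, and leukocyte markers 0.000938% to 0.149%. Tet2 was lower in knockout oocytes, at 0.941 to 1.38 CPM (counts scaled to a library total of 1000000) in the group sums against 2.301 to 3.39 in wild type (edgeR log2 difference -1.36, SE 0.19, Benjamini-Hochberg adjusted p = 0.0360). It was not lower in the granulosa pools labelled knockout (log2 difference 0.55 in young, 0.43 in old control and 0.03 in old resveratrol pools, edgeR adjusted p = 0.697, 0.479 and 0.991), so these are called by their label. A single young knockout oocyte, the fifth of set 1 by its column header, stood apart. Its mean correlation with the other oocytes was 0.779, against a median of 0.912 and a next lowest value of 0.847.

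In oocytes the 10 genes together took 0.671% to 1.41% of all counts (median 0.963%). Ccnb1 was the most abundant, at 2709 to 8470.1 CPM with a median of 5067. Per kilobase of transcript, the scale on which genes can be compared, the order of median levels was Ccnb1 (2036 CPM per kb), Cks2 (1629), Mos (769.9), Wee2 (395), Ccnb2 (195), Plk1 (133), Aurka (104), Fbxo43 (77.0), Cdc25b (5.00) and Cdk1 (0.528). Over the union of exons in place of 1 transcript, Cks2 (1629) stood before Ccnb1 (1202). The catalytic subunit Cdk1 was thus the scarcest of the members as polyadenylated RNA, while its cyclin and Cks partners were the most abundant.

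**Figure D1:**
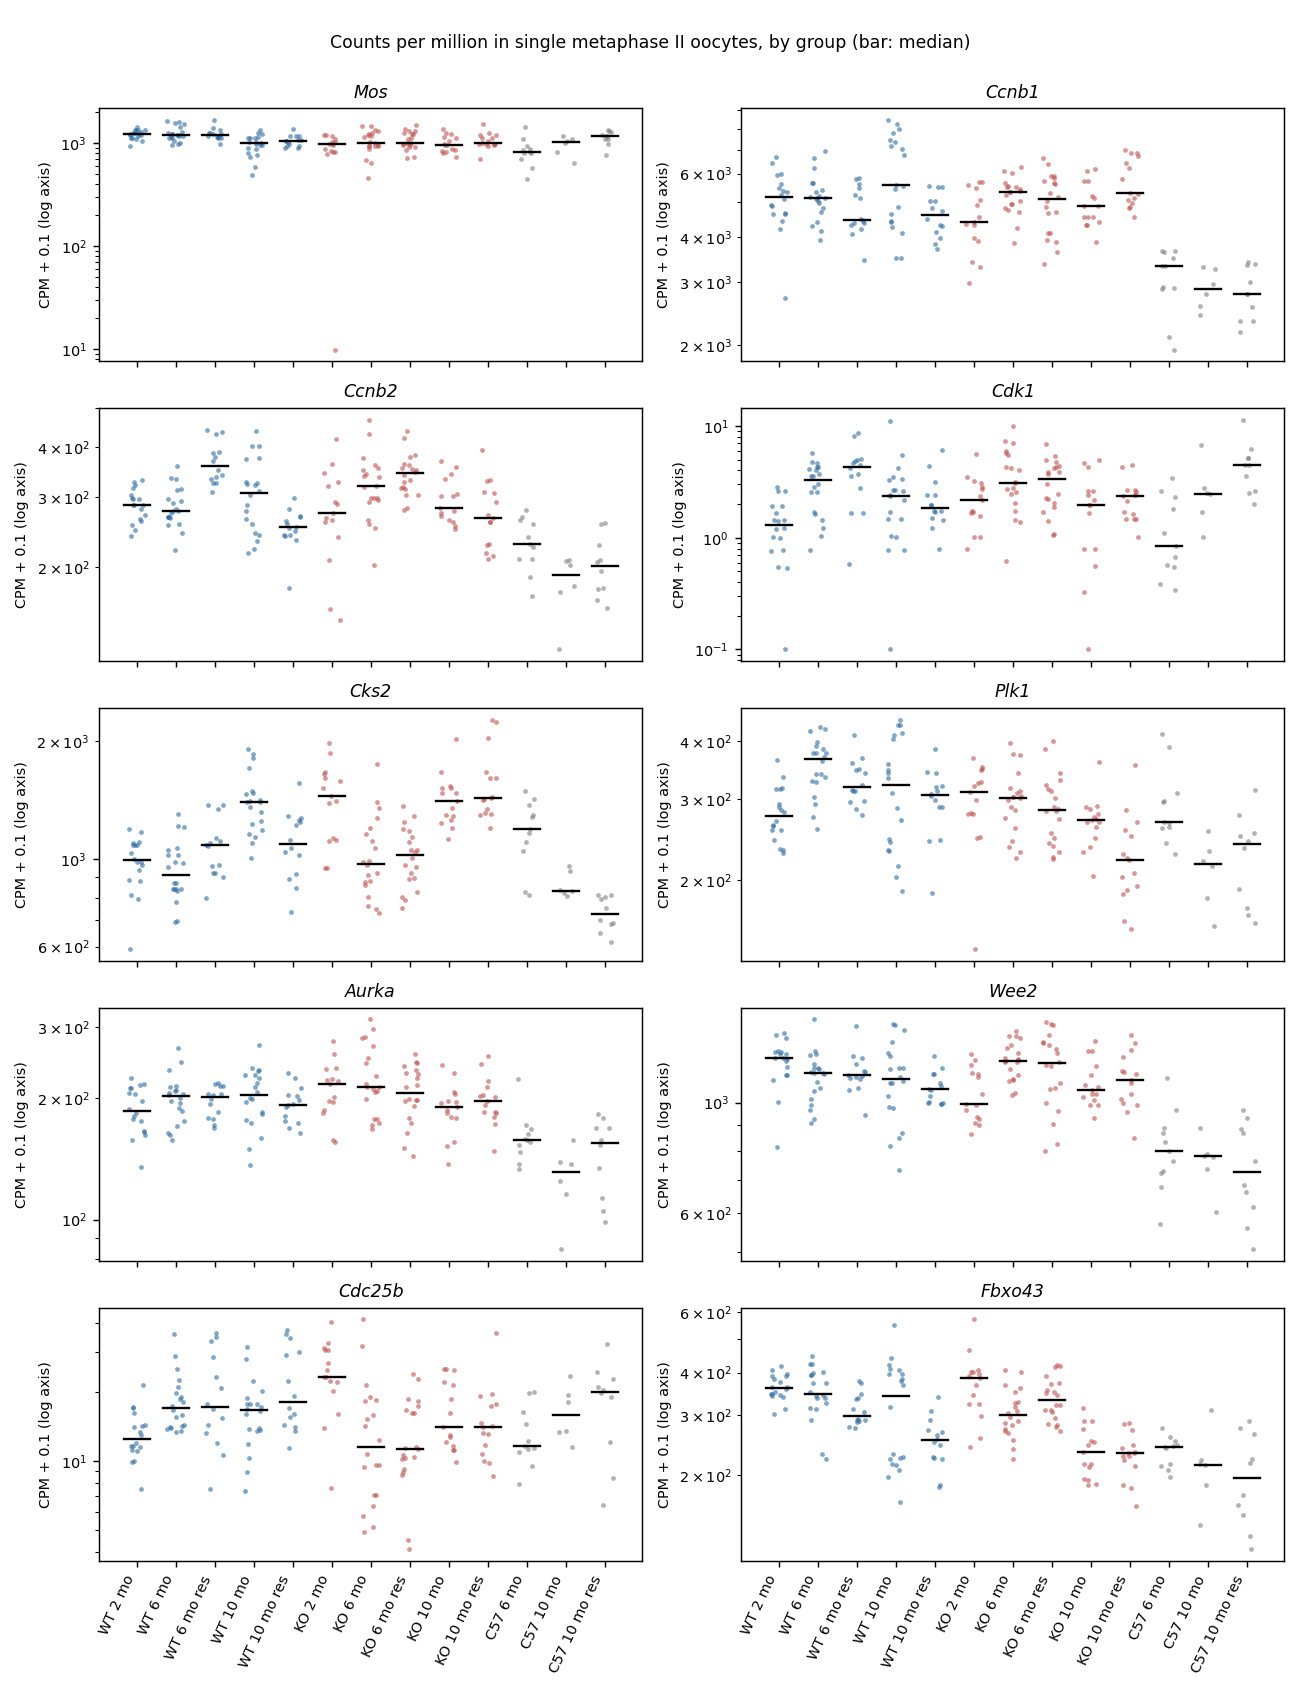
CPM + 0.1 of each of the 10 genes on a log axis in every single oocyte, by group (WT wild type, KO knockout, res resveratrol, C57 the C57BL6 oocytes), with each point an oocyte and the bar the group median. The groups overlap for most genes, Cdk1 and Cdc25b scatter widely, and 1 young knockout oocyte lies far below the others for Mos.

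Of the subunits of maturation promoting factor, Cdk1 was read at 0 to 11.03 CPM (median 2.31), with no count in 3 of 171 oocytes. Its group medians ran from 1.21 CPM in young wild type to 4.23 CPM in middle-aged wild-type resveratrol oocytes. Ccnb1, the main mitotic cyclin and the one whose destruction ends metaphase, had group medians between 4393 CPM in young knockout and 5566 CPM in old wild-type control oocytes. Ccnb2, the B cyclin that can replace it in oocytes, ranged from 147 to 468 CPM, with group medians from 252 CPM in old wild-type resveratrol to 359 CPM in middle-aged wild-type resveratrol oocytes. These last groups did not overlap, at 177 to 298 CPM and 308 to 440.3 CPM. Cks2, the small subunit of the kinase, is required for the first meiotic division. It had medians of 913 to 1086 CPM in young wild-type and in all middle-aged groups, of 1095 CPM in old wild-type resveratrol oocytes, and of 1399.7 to 1447 CPM in the young knockout and the other 3 old groups.

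Wee2, the oocyte kinase that inhibits Cdk1, was the steadiest member. It ranged from 734 to 1470.1 CPM, its group medians lay between 992 and 1227 CPM, and the typical coefficient of variation among oocytes of a group was 11.4%. Its spread stood at percentile 0.561 of the genes at 10 CPM or more, where low means even from oocyte to oocyte. These percentiles leave out the young knockout oocyte that stood apart. The genes, with a median of 41.2 CPM, were not matched for level. Counting error adds more to the spread of genes with few counts, so a percentile depends in part on level. Cdc25b, the phosphatase that activates Cdk1 at the resumption of meiosis, was low and uneven at 4.02 to 41.5 CPM. Its group medians lay between 11.2 and 23.2 CPM, and its spread stood at percentile 87.0. The spreads of Aurka (2.07), Ccnb2 (4.66), Plk1 (8.43), Ccnb1 (11.4), Cks2 (13.3), Fbxo43 (13.5) and Mos (14.0) were all in the lower part of that distribution.

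Mos had group medians of 968 to 1227 CPM, and 9 of the 10 groups held no oocyte under 455 CPM. The ratio of its highest to its lowest group median was 1.27. Plk1, which also marks inhibitors of the anaphase-promoting complex for removal, had medians of 221 CPM in old knockout resveratrol to 366 CPM in middle-aged wild-type control oocytes, a ratio of 1.66. Aurka, the spindle-pole kinase, had medians of 186 to 217 CPM, a ratio of 1.17. For Cdk1 that ratio was 3.49, the widest of the 10 genes. With groups ordered by their medians, every neighbouring pair overlapped for every member, and for 7 members some level was shared by all 10 groups. The exceptions were Ccnb2, above, Cks2 (young wild type up to 1193 CPM, old knockout resveratrol from 1204 CPM) and Fbxo43 (young wild type from 302 CPM, old knockout resveratrol up to 285 CPM).

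Fbxo43, which keeps the egg arrested by blocking cyclin destruction, is described by age. The lowest, median and highest oocytes at 2 months were 302, 359 and 417 CPM in wild type and 241, 384 and 573 CPM in knockout. At 6 months they were 223, 347 and 446 CPM in wild-type control and 275, 299 and 377 CPM in wild-type resveratrol oocytes. Knockout oocytes of that age gave 223, 300.2 and 407 CPM with control and 269, 333 and 419.8 CPM with resveratrol. By median, every middle-aged group lay below both young groups. At 10 months the values were 167, 342 and 551 CPM in wild-type control and 185, 253 and 339 CPM in wild-type resveratrol oocytes. Old knockout oocytes gave 187, 234 and 314 CPM with control and 163, 232 and 285 CPM with resveratrol. In 3 of the 4 old groups the median was below the lowest young wild-type oocyte, and old wild-type control oocytes were the most widely spread of the old groups.

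The young knockout oocyte that stood apart had 48 counts of Mos, or 9.79 CPM, in a library of 4903830 counts. The other 14 oocytes of its group held 795 to 1198 CPM, with a median of 981. On the log2(CPM + 1) scale this is -6.50 against the mean of those oocytes, the largest deficit among 6951 genes. The next lowest Mos value in any oocyte was 455 CPM. In this oocyte 201 genes were more than 8-fold below the mean of the others on that scale and 11 were more than 8-fold above it. Plk1 was 142 CPM against 247 to 367, and Ccnb2 was 419.9 CPM against 147 to 362. Wee2 at 1142 CPM and Ccnb1 at 3407 CPM lay within the range of the other oocytes. Gdf9, an oocyte growth factor, was 462 CPM against 3389 to 9198, and Bub1b, a spindle checkpoint kinase, was 45.3 CPM against 1186 to 1683. The members' tests in oocytes below were repeated without it, and those of the other gene lists were not.

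Age was tested on summed oocyte counts. The labels name no animal, so a group of oocytes counts as 1 sample, and 10 group sums were fitted with age, genotype and treatment as additive terms (edgeR quasi-likelihood test, 20806 genes, Benjamini-Hochberg adjusted p under 0.05 counted as passing). Between 10 and 2 months 0 of the 10 members passed (0.00481% of all genes did), and between 6 and 2 months 0 of 10 (0%, with 1905 genes at unadjusted p under 0.05). Between 10 and 6 months 0 of 10 passed, with the same 0.00481% of genes. The lowest p from 2 to 10 months was that of Fbxo43 (log2 difference -0.51, SE 0.16, edgeR adjusted p = 0.241). From 2 to 6 months it was that of Cdk1 (0.90, SE 0.32, edgeR adjusted p = 0.502), and from 6 to 10 months that of Cks2 (0.45, SE 0.15, edgeR adjusted p = 0.192). At unadjusted p under 0.05 there was 1 of 10 members between 6 and 2 months, a share near that of the 1905 of 20806 genes. The members' median log2 difference was -0.05 from 2 to 10 months (all genes 0.02), 0.02 from 2 to 6 months (all genes -0.00) and -0.10 from 6 to 10 months (all genes -0.00).

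Column headers give each oocyte a set number within its group, 26 sets in all. What a set is, such as an animal or a collection day, is not given. An alternative chosen after the data were seen summed the oocytes of each set in place of the group, under the same terms (edgeR, 17848 genes). If sets share animals, its p-values are too small. By sets, Fbxo43 fell between 2 and 10 months (log2 -0.50, SE 0.13, edgeR adjusted p = 0.0123), as 1 of the 10 members against 12.4% of all genes. Normalised levels in sets were 339.8 to 395 CPM in young wild type and 359 and 426 CPM in young knockout, against 203 to 258 CPM in 9 of the 10 old sets. The exception was set 1 of old wild-type control at 441 CPM, so that the ages overlapped through this set alone. Left out in turn, each of the 26 sets gave an adjusted p between 2.53e-05 and 0.0333.

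Between 6 and 10 months 2 of the 10 members passed by sets (16.1% of all genes). Cks2 rose (log2 0.43, SE 0.11, edgeR adjusted p = 0.0119) and Fbxo43 fell (log2 -0.36, SE 0.10, edgeR adjusted p = 0.0191). Both passed with any of the 26 sets left out, Cks2 at a log2 difference of 0.36 to 0.49. The single-oocyte values of Cks2 at 6 months were 692, 913 and 1304 CPM (lowest, median, highest) in wild-type control and 799, 1086 and 1377 CPM in wild-type resveratrol oocytes. They were 730.1, 976 and 1747 CPM in knockout control and 751, 1026 and 1367 CPM in knockout resveratrol oocytes. At 10 months they were 1008, 1399.7 and 1910.4 CPM in wild-type control and 736, 1095 and 1569 CPM in wild-type resveratrol oocytes. Old knockout oocytes gave 1127, 1406 and 2028 CPM with control and 1204, 1434 and 2269.7 CPM with resveratrol. Single oocytes of the ages overlapped, and young knockout oocytes (949.6, 1447 and 1981 CPM) were as high as the old. Between 2 and 6 months 0 of 10 passed by sets (3.22% of all genes), and Cdk1 had the lowest p (log2 1.04, SE 0.30, edgeR adjusted p = 0.0513).

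**Figure D2:**
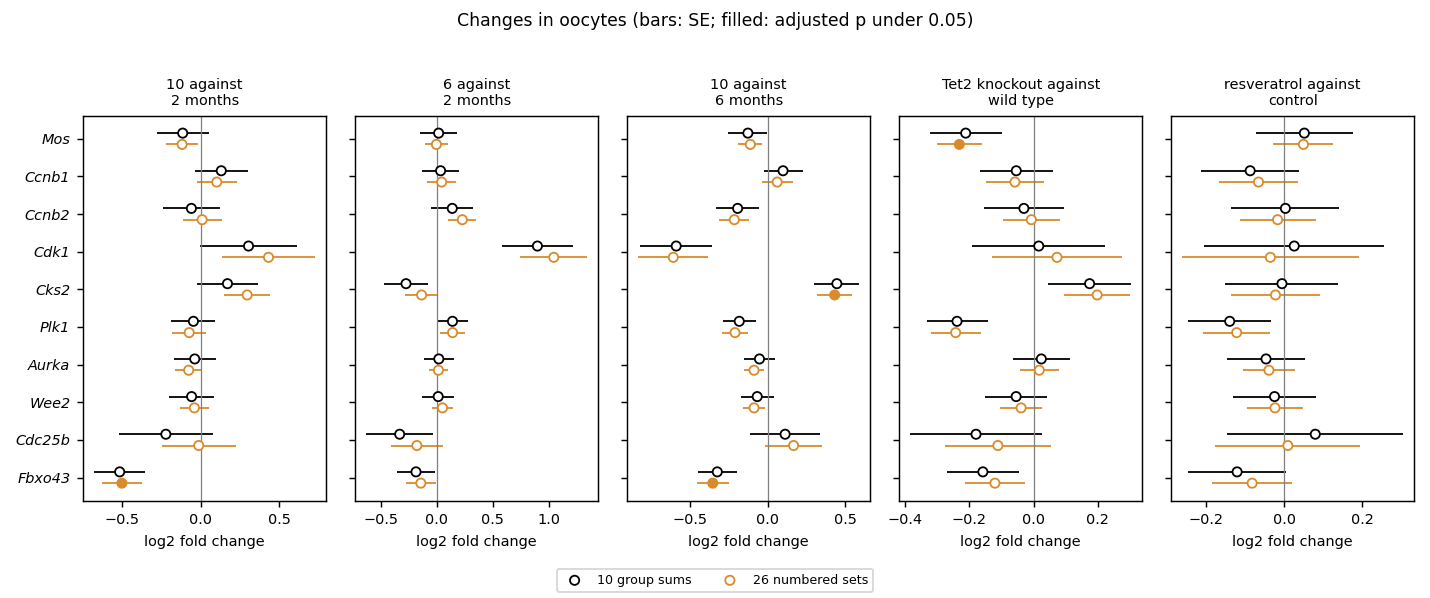
Log2 difference of each of the 10 genes in oocytes with its standard error, by age, genotype and treatment, from group sums and from numbered sets. Filled points have an adjusted p under 0.05, none of them from group sums, and the filled ones by sets are Fbxo43 and Cks2 by age and Mos by genotype.

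The Tet2 knockout was compared with wild type in the same models. By group sums 0 of the 10 members passed (0.139% of all genes), with Plk1 at the lowest p (log2 difference -0.24, SE 0.09, edgeR adjusted p = 0.336). The members' median was -0.05 against 0.02 over all genes. By sets 1 of 10 passed (8.26% of all genes): Mos was lower in knockout oocytes (log2 -0.23, SE 0.07, edgeR adjusted p = 0.0396). The single-oocyte Mos values at 2 months were 929.9, 1227 and 1428 CPM in wild type and 9.79, 977 and 1198 CPM in knockout. At 6 months control oocytes gave 953, 1206 and 1659 CPM in wild type and 455, 1012 and 1479 CPM in knockout, and at 10 months 495, 1001 and 1356 CPM against 743, 968 and 1376 CPM. The genotypes overlapped at each age, and the medians lay closest at 10 months. Without the oocyte that stood apart the adjusted p of Mos was 0.0609, and with single sets left out it passed in 16 of 26 fits. The call was lost without set 1 or 2 of young knockout, middle-aged wild-type resveratrol, middle-aged knockout control or middle-aged knockout resveratrol oocytes, without set 1 of middle-aged wild-type control and without set 2 of young wild type. Plk1 had an adjusted p of 0.0507 by sets (log2 -0.24).

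Resveratrol was compared with control water at 6 and 10 months. Of the 10 members 0 passed by group sums (edgeR, 0% of all genes, with 362 genes and 0 members at unadjusted p under 0.05) and 0 passed by sets (0%, with 748 genes at unadjusted p under 0.05). The lowest p by group sums was that of Plk1 (log2 difference -0.14, SE 0.11, edgeR adjusted p = 1.00). Its medians were 366 and 317 CPM for control and resveratrol in middle-aged wild type, and 321 and 306 CPM in old wild type. In knockout oocytes they were 301 and 284 CPM at 6 months and 269.6 and 221 CPM at 10 months, with overlap in every pair. The members' median difference was -0.02 against -0.01 over all genes.

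Sets of 1 group could differ by more than the groups. In old wild-type control oocytes, set 1 (11 oocytes) held Ccnb1 at 7215 CPM and set 2 (9 oocytes) at 4344 CPM, with single oocytes at 5552 to 8470.1 and 3485 to 5431 CPM. Fbxo43 was 405 CPM in set 1 (316 to 551) and 212 CPM in set 2 (167 to 231). Plk1 was 382 CPM (286 to 445) against 238 CPM (190.0 to 309). For Ccnb1 and Fbxo43 the oocytes of the sets did not overlap at all, within 1 age, genotype and treatment. These sets were singled out after their values were seen, and no test was made of them.

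The rest of the pathway was read from lists of genes that work with the members. Only some lists and contrasts are described, and others also held passing genes by sets. By group sums 0 genes passed in any list for any of the 5 oocyte contrasts (edgeR). By sets, of 19 genes of the anaphase-promoting complex 3 rose and 1 fell from 2 to 10 months, when 12.4% of all genes passed. Cdc20, its activator at anaphase, fell (log2 -0.69, edgeR adjusted p = 0.000482), and Ube2s (0.70), Fzr1 (0.66) and Anapc10 (0.39) rose. From 6 to 10 months, when 16.1% of all genes passed, 1 rose and 4 fell, among the latter Cdc20 (-0.61), Ube2c (-0.63), Cdc23 (-0.40) and Anapc5 (-0.35).

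Among 14 regulators of maturation promoting factor, 2 rose from 2 to 10 months by sets, a share near that of all genes, Mastl (0.29), the kinase that blocks the opposing phosphatase, and Cks1b (0.38). From 6 to 10 months 5 rose and 1 fell, when 16.1% of all genes passed. Among the risen were Ccnb3 (0.88), a cyclin of meiosis I, Cdc25c (0.88), Cdk2 (0.45) and Mastl (0.27). Of 9 genes of the cyclic AMP pathway that holds prophase arrest, 1 passed from 2 to 10 months, near the 12.4% of all genes. It was Prkacb, a catalytic subunit of protein kinase A, which fell (-0.46). Between genotypes, where 8.26% of all genes passed, 1 of 14 regulators was higher in knockout, Mnat1 (0.29), and 1 lower, Pkmyt1 (-0.45), the membrane-bound Cdk1 inhibitor. For resveratrol 0 genes of any list passed by sets. Markers of cell types moved in the same fits. From 2 to 6 months 3.22% of all genes passed. Of 5 tested granulosa markers 1 rose, Inha (7.31), and of 3 cumulus markers 1, Tnfaip6 (7.07). From 6 to 10 months (16.1%) 3 of 5 granulosa markers fell, Inhba among them (-4.66), and 2 of 3 cumulus markers. Inhba was higher in knockout oocytes (3.46). Inha, Inhba and Tnfaip6 had a median of 0 CPM over oocytes, so their log2 differences start from a level near 0. The filter could favour sets where such a marker was high, and these counts are no independent support. Of 12 oocyte markers 1 fell from 2 to 10 months, Gdf9 (-0.51), against 12.4% of all genes. From 6 to 10 months 3 fell, Gdf9 (-0.66), Oas1d (-0.40) and Zp3 (-0.62), against 16.1%. Gdf9 was lower in knockout oocytes (-0.40), in a fit that includes the oocyte that stood apart, whose Gdf9 was 462 CPM. Granulosa markers took a median of 0.00408% to 0.0103% of counts in the 10 groups, the highest in middle-aged knockout control oocytes, and the part of these markers in the members' differences was not tested.

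Single oocytes of a group also varied together. Pearson's r of log2(CPM + 1) was taken over 170 oocytes with group means removed and without the oocyte that stood apart. Oocytes share batches of preparation and depth, so r is a description. Of 45 pairs of members, 14 had r above 0.3, 0 had r below -0.3, and 8 were above 0.3 in the 27 assigned C57BL6 oocytes as well. Ccnb1 and Wee2, the cyclin and the inhibitor of the same kinase, had r = 0.60 (0.56 within sets, 0.82 in C57BL6). Plk1 had r = 0.60 with Fbxo43 (0.45 within sets, 0.80 in C57BL6) and 0.58 with Aurka (0.48 and 0.81). Ccnb2 and Cks2 had r = 0.50 in both first settings and -0.21 in C57BL6. The correlation of Ccnb1 with Fbxo43, 0.30 over group means, was -0.00 within sets. Mos stood outside these pairs in the C57BL6/129 oocytes, with no r beyond 0.24 in size (within sets up to 0.30, with Wee2), and in C57BL6 oocytes its r ran from -0.44 with Cks2 to 0.43 with Cdc25b.

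**Figure D3:**
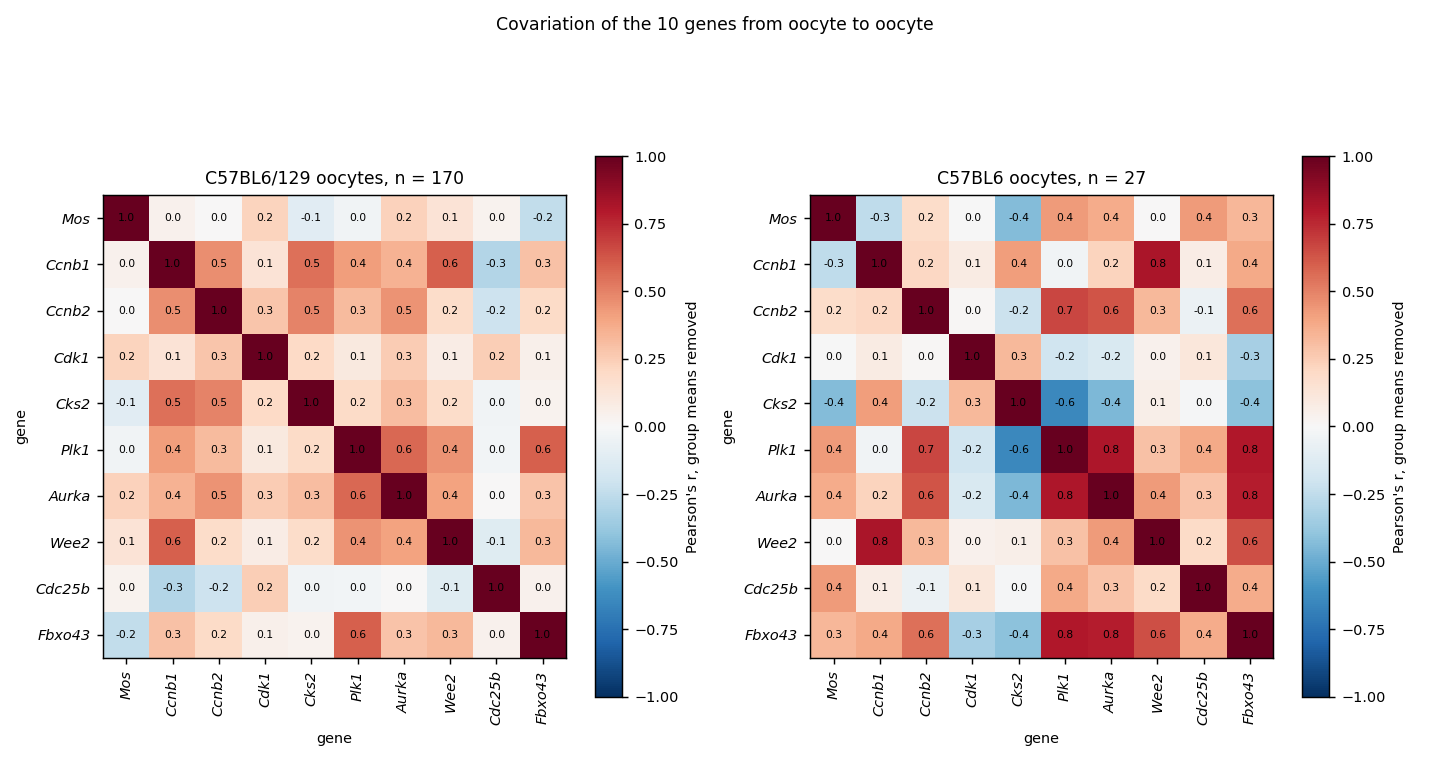
Pearson's r between the 10 genes over 170 single C57BL6/129 oocytes and over 27 C57BL6 oocytes, on log2(CPM + 1) with group means removed. Ccnb1 with Wee2 and Plk1 with Fbxo43 and Aurka are high in both, and Mos is weakly related to the others in the C57BL6/129 oocytes.

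Of all genes at 10 CPM or more, the 5 most like Ccnb1 over single oocytes were Nup35 (r = 0.79), Uba3 (0.77), Rbm18 (0.77), Arpp19 (0.75) and Tbc1d15 (0.74). In C57BL6 oocytes these had r of 0.78, 0.74, 0.41, 0.86 and 0.75. Arpp19 encodes the small protein that, once phosphorylated by Mastl's kinase, inhibits the phosphatase opposing Cdk1. For Mos over all oocytes they were 1 numbered feature (0.85), Tpra1 (0.84), Lbr (0.80), Plat (0.80) and Slc35b3 (0.79). These fell to 0.27 to 0.39 without the oocyte that stood apart, so that in this table the likeness rested on 1 library. In the C57BL6 oocytes, which the choice did not use, the same genes in order had r of 0.70, 0.75, 0.78, 0.68 and 0.61 with Mos. Without it the genes most like Mos were Gna14 (0.68), Golph3l (0.64), Kpna7 (0.64), 1 clone gene (0.62) and Kcnn2 (0.62), with r of 0.27, 0.09, 0.70, 0.27 and 0.33 in C57BL6 oocytes.

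The counts of C57BL6 oocytes stand in a table of their own, in which the Ccnb1 medians were 2769.5 to 3319 CPM, below those of the other 10 groups. Strain and table cannot be told apart there. In C57BL6 oocytes, where each group is 1 sample and no test exists, old control was set against middle-aged control as a ratio of summed CPM with a 95% Poisson interval for counting error. Mos was 446, 823 and 1423 CPM (lowest, median, highest) at 6 months and 648, 1032 and 1172 CPM at 10 months, a ratio of 1.21 (1.197 to 1.23). Cks2 was 809.7, 1196 and 1496 CPM against 807, 832 and 961 CPM, a ratio of 0.726 (0.716 to 0.735). Plk1 had a ratio of 0.747 (0.727 to 0.768), Ccnb1 0.926 (0.918 to 0.933) and Fbxo43 0.947 (0.921 to 0.974). Cks2 was thus lower at 10 than at 6 months in this strain and Fbxo43 nearly level, whereas in the C57BL6/129 sets Cks2 was higher and Fbxo43 lower. The tables were normalised separately, and that difference was not tested. Past 1.25-fold, 1 of 9 members at 10 CPM or more was higher, Cdc25b (1.28, 1.15 to 1.44), against 31.1% of genes, and 2 were lower, Cks2 and Plk1 (24.9%). Cdk1, below 10 CPM, had a ratio of 1.91 (1.36 to 2.71).

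Resveratrol against control in old C57BL6 oocytes gave a ratio of 1.17 (1.15 to 1.18) for Mos, at 774, 1169 and 1343 CPM against 648, 1032 and 1172 CPM. Cks2 had a ratio of 0.849 (0.837 to 0.861), at 615, 727 and 814 CPM against 807, 832 and 961 CPM. Past 1.25-fold, 0 of 9 members were higher (12.4% of genes) and 0 lower (13.1%). Cdk1 had a ratio of 1.99 (1.57 to 2.54), at 1.92, 4.38 and 11.3 CPM against 0.920, 2.38 and 6.63 CPM. Single oocytes of the groups overlapped for all 10 genes.

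In granulosa pools the 10 genes took 0.0619% to 0.135% of counts. Per kilobase of transcript the order of median levels was Cks2 (693 CPM per kb), Ccnb2 (63.3), Ccnb1 (56.5), Aurka (31.8), Cdk1 (24.2), Plk1 (10.2) and Cdc25b (2.22), and Mos, Wee2 and Fbxo43 were near 0. As ratios of medians, oocytes exceeded granulosa pools 8723-fold for Mos, 1403-fold for Fbxo43, 36.1-fold for Ccnb1, 13.1-fold for Plk1 and 2.25-fold to 3.29-fold for Cdc25b, Cks2, Ccnb2 and Aurka. The folds of Mos and Fbxo43 rest on granulosa medians of 0.128 and 0.222 CPM, from at most 11 and 5 counts in a pool. Mos, Fbxo43 and Wee2 had no count in 6, 5 and 11 of the 18 pools. Cdk1 alone was higher in granulosa pools, by 45.9-fold. Granulosa cells divide by mitosis, for which Cdk1, both cyclins, Plk1 and Aurka are general factors, while Mos, Wee2 and Fbxo43 are known from germ cells. The cell types differ in cell number per library and in preparation, so the ratios describe levels relative to all counts of a library.

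**Figure D4:**
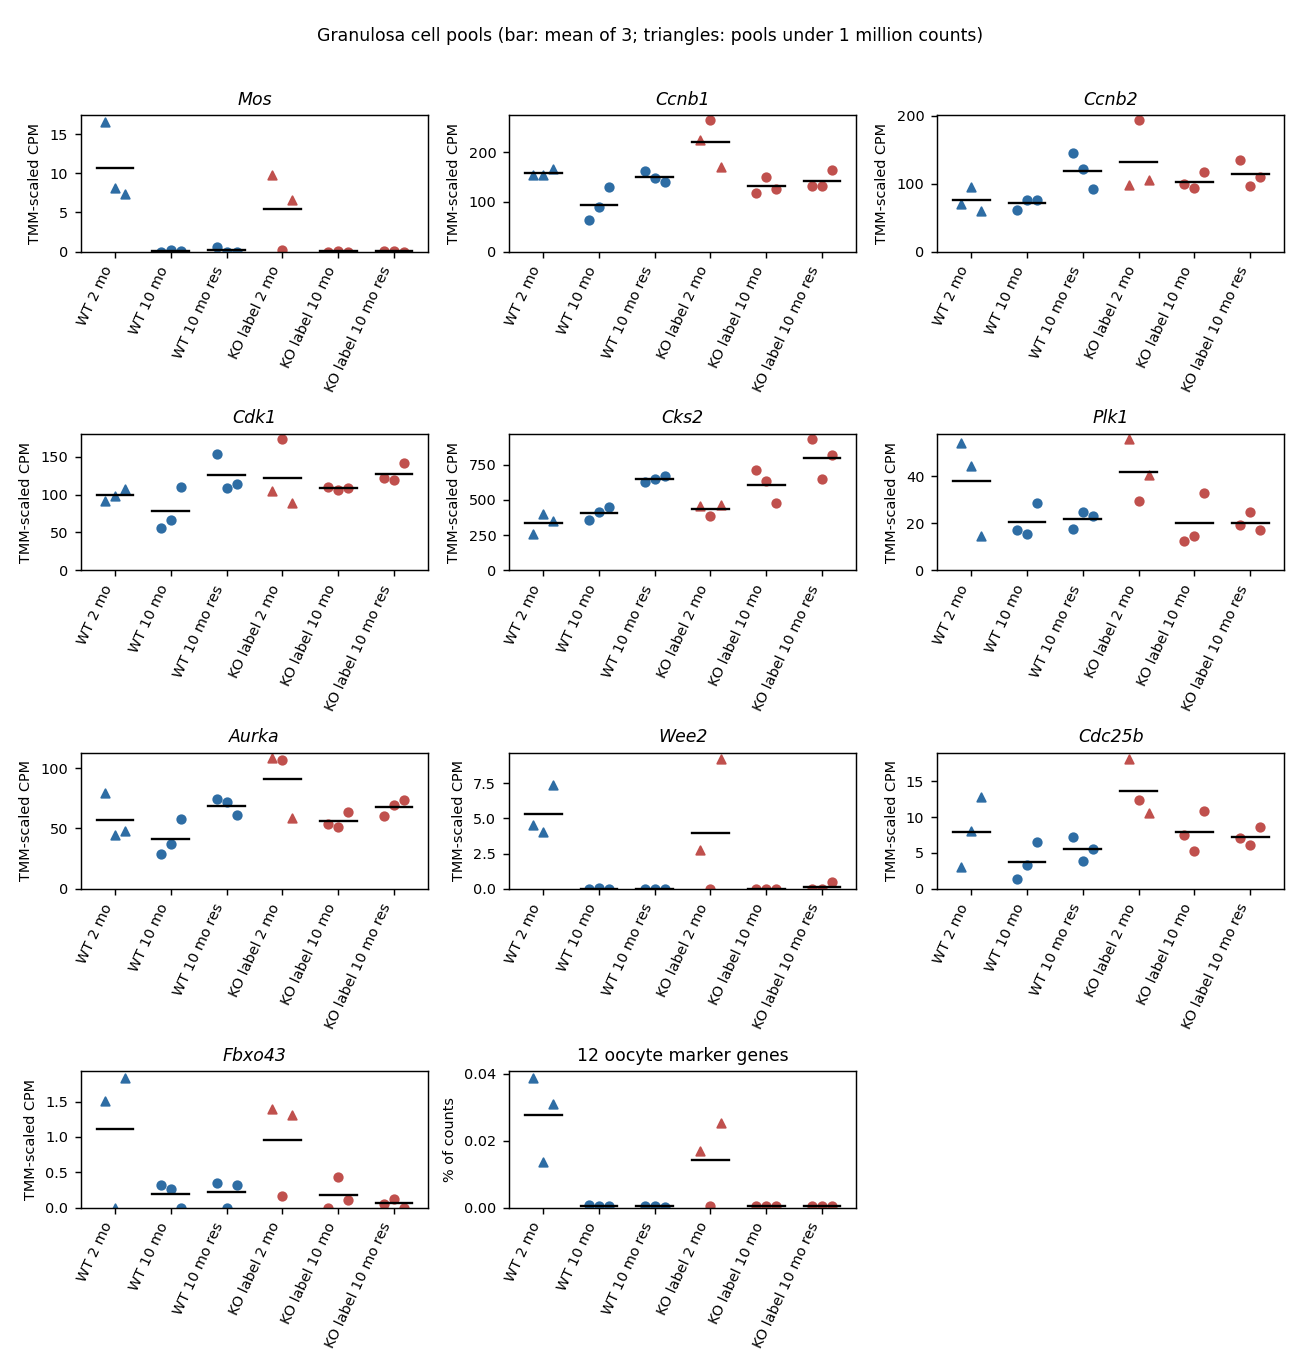
TMM-scaled CPM of each of the 10 genes, and the share of counts of 12 oocyte markers in percent, in every granulosa pool by group, with the bar the mean of 3 pools and triangles the 5 pools under 1000000 counts. Mos and Wee2 are highest in young pools, and Cks2 is lowest in young wild-type replicate 1 at 260.3 CPM.

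Granulosa pools were tested in 1 model of the 6 groups (edgeR quasi-likelihood test, 17558 genes, 12 residual degrees of freedom). Levels below are TMM-normalised CPM in replicates 1, 2 and 3. Under TMM scaling the median log2 difference of all genes between old and young was 0.17 in wild type and 0.10 under the knockout label, against 0.07 and 5.86e-05 with RLE size factors, and the members' differences are to be read against these. In pools, fewer cells of a type and less RNA per cell cannot be told apart. Of the 10 members, 7 passed the filter on low counts in all pools. Mos, Wee2 and Fbxo43 passed it only through young pools, so that being tested at all favoured a higher young level, and their calls with age are no independent support for a difference.

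Between old and young wild-type control pools 1 of the 10 members passed (1.53% of all genes). Mos was 16.5, 8.07 and 7.33 CPM in young and 0, 0.210 and 0.128 CPM in old pools. The fitted log2 difference was -6.30 (SE 1.51, edgeR adjusted p = 0.0374), from 11, 4 and 4 counts against 0, 4 and 2. The ratio of summed levels was 77.2 (29.7 to 236 by counting error), and the pools did not overlap. With any 1 of the 6 pools left out the adjusted p was 0.0811 to 0.161. Wee2 was 4.51, 4.03 and 7.33 CPM in young and 0, 0.0524 and 0 CPM in old pools (adjusted p = 0.0736), which is 9 counts in the young pools together.

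Oocyte RNA moved with these differences. Oocyte markers took 0.0388%, 0.0136% and 0.0310% of counts in the young wild-type pools and 0.0170%, 0.000492% and 0.0252% in the young knockout-label pools, against 0.000222% to 0.000884% in the 12 old pools. Of 9 tested oocyte markers 5 were lower in old wild-type pools (1.53% of all genes passed) and 6 in old knockout-label pools (5.17%). In old pools 8 of the 12 markers had a median of 0. The filter's limit given above can hold for such markers too, so these counts are no independent support. Per 100 counts of oocyte markers the 5 shallow young pools held 3.99 Mos counts (2.695 to 5.72), the old pools 2.82 (1.71 to 4.396) and all oocytes 3.09 (3.08 to 3.09). The young pool with the smallest oocyte marker share, knockout-label replicate 2, also held the least Mos of the young pools, at 0.165 CPM. This pool was also the only young one that was not shallow, at 11595710 counts. Depth and oocyte marker share cannot be told apart among the young pools. Ccnb1 was 18.1 counts per Mos count in the shallow young pools and 4.75 in oocytes. The part of oocyte RNA in the members' differences was not tested.

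Ccnb1 was 153, 153 and 167 CPM in young wild-type and 64.1, 90.2 and 129 CPM in old wild-type control pools, without overlap, and did not pass (log2 -0.81, SE 0.22, edgeR adjusted p = 0.0679). With a pool left out it passed in 1 of 6 fits, that without old wild-type control replicate 3 (edgeR adjusted p 0.0249 to 0.260 over the 6). Under the knockout label the same contrast passed. Young pools held 224, 264 and 171 CPM and old control pools 118, 150 and 126 CPM, and Ccnb1 fell (log2 -0.73, SE 0.21, edgeR adjusted p = 0.0481). It passed in 1 of the 6 fits that left out a pool, the one without young knockout-label replicate 3 (edgeR adjusted p 0.0344 to 0.163 over the 6). The adjusted p was 0.0586 with the replicate block and 0.202 in a fit of these 6 pools alone. In the same contrast, where 5.17% of all genes passed, 4 of 10 leukocyte markers rose, Cd74 (4.72), Ptprc (3.12), Tyrobp (2.56) and Cd68 (1.37). Of 10 granulosa markers Inha (-1.53) and Amhr2 (-1.34) fell and Nr5a2 (1.33) rose. Leukocyte markers took 0.00111% to 0.0825% of counts in young and 0.114% to 0.149% in old pools, and their part in the difference was not tested.

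Under the knockout label 3 of the 10 members passed between old and young (5.17% of all genes). Besides Ccnb1 these were, with the filter's limit given above, Mos (log2 -7.03, SE 1.72, edgeR adjusted p = 0.0184) and Wee2 (-8.14, SE 2.22, edgeR adjusted p = 0.0383). Mos was 9.75, 0.165 and 6.56 CPM in young and 0, 0.0859 and 0 CPM in old pools, from 14 counts against 1. Wee2 was 2.79, 0 and 9.18 CPM in young pools, from 9 counts, and had no count in the old ones. The ratio of summed levels, young over old, had a lower limit of 6.78 by counting error. With a floor of 3 counts set for the old group, that ratio was 10.3. The Wee2 pools touched at 0. With a pool left out, Mos (edgeR adjusted p 0.00622 to 0.0956) and Wee2 (0.0100 to 0.323) passed in 1 of 6 fits each, that without young knockout-label replicate 2. Whether the change with age differed between genotype labels was tested as an interaction, and 0 of 10 members passed (0.137% of all genes), with Cks2 at 0.30 (edgeR adjusted p = 0.861).

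**Figure D5:**
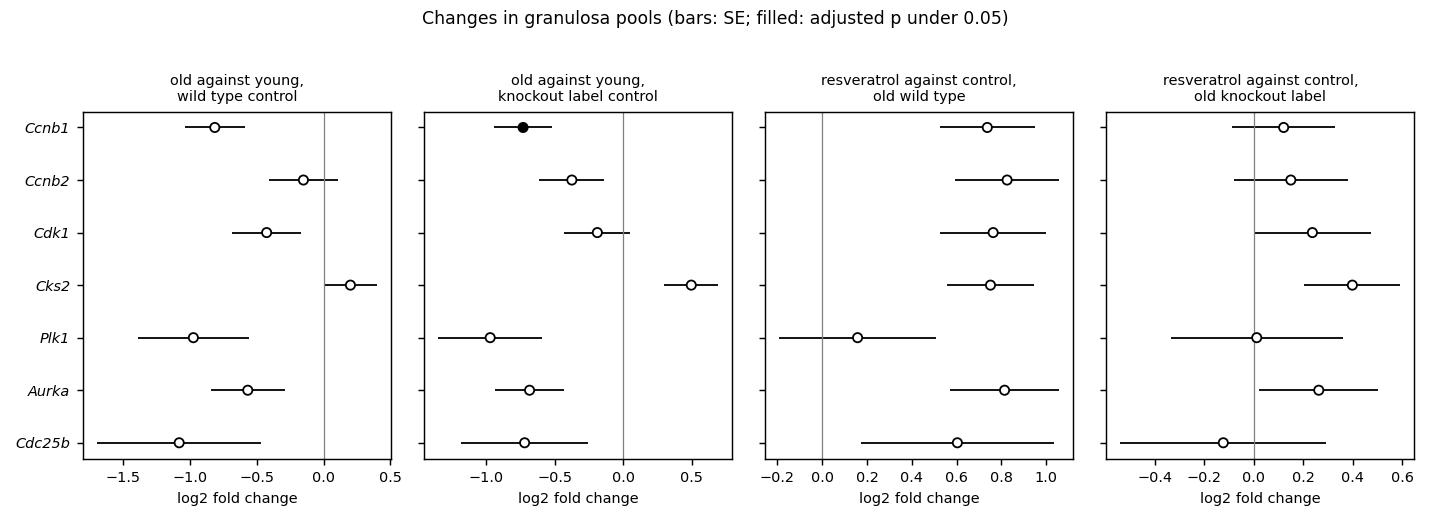
Log2 difference with its standard error of the 7 members above a few counts in granulosa pools, by age and by resveratrol within each genotype label. The only filled point (adjusted p under 0.05) is Ccnb1 for age under the knockout label, and 5 genes lie between 0.74 and 0.83 for resveratrol in wild type.

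Other genes of cell division were tested between the ages in the same model. In wild type, where 1.53% of all genes passed, 1 of the 15 genes of the mitotic list fell with age. It was Aurkb, Aurka's relative at centromeres (log2 -1.49, edgeR adjusted p = 0.0345). The list's median log2 difference was -0.61 against 0.17 over all genes. Under the knockout label, where 5.17% of all genes passed, 3 of 15 fell. They were Ccna2, the cyclin of S phase and early mitosis (-0.72), and the checkpoint kinases Bub1b (-1.29) and Bub1 (-0.89). The list's median was -0.82 against 0.10. In the same contrast Arpp19 (0.69) and the anaphase-promoting complex genes Anapc13 (0.94) and Ube2s (1.07) rose. Aurka itself was 79.7, 44.4 and 47.7 CPM in young and 28.8, 36.9 and 57.6 CPM in old wild-type pools, which overlapped.

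Resveratrol was compared with control in old pools of each label. In wild type 0 of the 10 members passed (1.62% of all genes). Cks2 had the lowest p, at 358, 414 and 447 CPM in control and 630.1, 649 and 671 CPM in resveratrol pools (log2 difference 0.75, SE 0.20, edgeR adjusted p = 0.0504). The pools did not overlap. Ccnb2, Ccnb1, Aurka and Cdk1 did not pass either, and were named after their values were seen. Ccnb2 was 61.2, 76.5 and 75.6 CPM in control and 145, 122 and 91.9 CPM in resveratrol pools (0.83, SE 0.23, edgeR adjusted p = 0.0668). Ccnb1 was 64.1, 90.2 and 129 CPM against 162, 147 and 141 CPM (0.74, adjusted p = 0.0709), again without overlap. Aurka (0.81, adjusted p = 0.0798) and Cdk1 (0.76, adjusted p = 0.0923) gave differences of like size, and for Cdk1 control replicate 3 at 110.2 CPM lay within the resveratrol range. With a pool left out, Ccnb1 (edgeR adjusted p 0.0412 to 0.382) and Cdk1 (0.0473 to 0.414) passed in 1 of 6 fits each, that without this pool. Cks2, Ccnb2 and Aurka passed in 0 of 6. The members' median was 0.74 against 0.01 over all genes.

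Partners of these genes passed in the same contrast. Cks1b, the other Cks subunit, rose (log2 0.95, edgeR adjusted p = 0.0238), as did Ube2c, which charges the anaphase-promoting complex (1.46, edgeR adjusted p = 0.0111), and the passenger protein Birc5 (1.15, edgeR adjusted p = 0.0238), and Plk3 fell (-2.13, edgeR adjusted p = 0.0480). Leukocyte markers rose in 5 of 10 genes, where 1.62% of all genes passed. Their summed share was 0.00615% to 0.0107% in control and 0.0136% to 0.0294% in resveratrol pools. The part of these markers in the members' differences was not tested. Under the knockout label 0 members passed with resveratrol (0.0285% of all genes, 618 at unadjusted p under 0.05). Cks2 was 714, 633 and 477 CPM in control and 933, 646 and 819 CPM in resveratrol pools (0.40, SE 0.19, edgeR adjusted p = 1.00). The interaction of resveratrol with the genotype label passed for 0 of 10 members (0.159% of all genes), with Ccnb1 at -0.62 (SE 0.30, edgeR adjusted p = 0.621).

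Between genotype labels 0 members passed in young pools (0.114% of all genes), in old control pools (3.86%) and in old resveratrol pools (1.07%). In old control pools Cks2 had the lowest p, at 714, 633 and 477 CPM under the knockout label against 358, 414 and 447 CPM in wild type (log2 difference 0.65, SE 0.19, edgeR adjusted p = 0.0607), without overlap. In young pools it was Ccnb2, at 97.5, 194 and 106 CPM against 70.7, 94.8 and 60.5 CPM (0.83, edgeR adjusted p = 0.265). Leukocyte markers were higher under the knockout label for 9 of 10 genes in old control pools, at 0.114% to 0.149% of counts against 0.00615% to 0.0107%. Cks1b (1.02), Ube2c (1.04) and Birc5 (0.94) were higher there too. The part of leukocytes in these differences was not tested.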

How the data were processed

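Smart-seq2 libraries of single oocytes and granulosa pools were read as paired reads of 150 bp. The authors deposited raw read counts per gene. HISAT2 2.1.0, featureCounts, DESeq2 and mm10 are named, without roles, in the submitters' processing notes, and the strand setting is not given in the sources used. The labels give cells per granulosa pool inconsistently. Groups follow sample titles; 18 young wild-type oocytes carry a contradicting genotype tag, and 1 C57BL6 oocyte with conflicting labels was left unassigned.

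Counts were tested with edgeR 4.0.16 (R 4.3.3, limma 3.58.1) with its quasi-likelihood test, TMM factors, filterByExpr (minimum count 10) and Benjamini-Hochberg adjustment over all genes at 0.05. Oocyte counts were summed per group (5 residual degrees of freedom). Granulosa pools entered 1 model. Alternatives were RLE factors, no filter, DESeq2 1.42.0, limma on means of single oocytes, thinning, a replicate block, only the groups compared, samples left out, and, added after the data were seen, numbered sets, an oocyte left out and shallow pools left out. Scripts were tested on simulated data. No source names separate animals, so p-values reflect spread among samples that may be technical, and intervals and floors cover counting error only.

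Members and gene lists were chosen with earlier results of these data known. A log2 difference was to be printed for members that passed or, with none, for that with the lowest p. Up to 4 passing genes were named for some lists and contrasts only. Lists and contrasts that are not described can hold passing genes. The 5 genes most like Mos and Ccnb1 were named. Others were named after their values were seen. A result of 1 list gene is not reported here.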

Additional observations from a re-analysis of the deposited data

Results flagged for a closer look

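Cdk1 in 1 old C57BL6 control oocyte, replicate 1, was 6.63 CPM while the other 5 oocytes held 0.920 to 2.69 CPM. The gap to the nearest oocyte was 0.689 of the whole range of the group, above Dixon's limit of 0.625 for 6 samples. Cdk1 in old C57BL6 resveratrol replicate 5 was 11.3 CPM while the other 9 oocytes held 1.92 to 6.08 CPM, a gap of 0.556 against a limit of 0.466. Of 20 tests (10 genes in 2 groups) 2 exceeded the limit, and chance alone gives about 1 in 20.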

How the results depend on the processing

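Counts of members that passed moved as follows. With numbered sets as samples, oocytes gave 1 of 10 from 2 to 10 months (2210 genes in all) and 1 without the young knockout oocyte that stood apart (2268 genes). They gave 2 from 6 to 10 months (2881 genes), again 2 without that oocyte (2865 genes), and 1 for the knockout (1474 genes). For age in wild-type granulosa pools 2 passed with RLE factors (219 genes), with no filter (785), with DESeq2 (536) and with only the groups compared (936), and 0 with the replicate block (211). Leaving out pools gave 0 to 1 members (60.0 to 120.0 genes). For age under the knockout label leaving out pools gave 0 to 2 members (343 to 1397 genes), the block 1 (830) and only the groups compared 0 (104). For resveratrol in wild type DESeq2 gave 5 (823 genes), only the groups compared 4 (1783), leaving out the 5 shallow pools 3 (960) and leaving out pools 0 to 2 (3 to 80.0 genes). For the knockout label in old control pools DESeq2 gave 1 (1033 genes), leaving out the shallow pools 1 (1284) and leaving out pools 0 to 1 (185 to 954 genes). The difference of Wee2 between labels in old resveratrol pools ran from a log2 of 0 (without knockout-label resveratrol replicate 3, which held all its 7 counts) to 4.37 with pools left out, and was 3.83 with all pools, not passing in any fit. Other causes were not tested. The other 184 counts kept their value within 1.5 times. Replicate numbers did not pair the pools (r of deviations -0.12 to 0.15, over 0.1 for all 3 numbers in 0 of 7 comparisons), and the block changed no other count of members. Depth limits Mos and Wee2 in granulosa pools, and Cdk1 in oocytes, to a few counts.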

Other observations

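The unassigned C57BL6 oocyte, with a resveratrol title and a control tag, held Mos at 1344 CPM, beside 774 to 1343 CPM in the old resveratrol oocytes and 648 to 1172 CPM in the old control oocytes. Its Cks2 level of 569.9 CPM lay below both groups (615 to 814 and 807 to 961 CPM), and its Cdc25b level of 34.2 CPM lay above both (6.30 to 32.3 and 11.4 to 23.4 CPM). Ccnb1 at 2743 CPM, Cdk1 at 3.01 CPM and Fbxo43 at 246 CPM lay within both groups.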
